A study of Rattus norvegicus with 8 samples.

Results

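The 31 genes described here encode RNA-binding proteins that regulate splicing and circular RNA. They were chosen by symbol from among the protein-coding rows of a table of 34298 genes, and all 31 were found with 1 row each. Their mRNA was measured by RNA sequencing in the orbitofrontal cortex of 8 adult males of the outbred Sprague-Dawley strain of rat, which were 8 weeks old on arrival. In 4 rats the cortex had received cNrxn3 siRNA, directed at the backsplice junction of the circular RNA of neurexin 3 (replicates 1 to 4, called knockdown libraries after their labels). In the other 4 it had received Scrambled siRNA (replicates 1, 3, 4 and 5). Every animal was thus infused, with 5 ng of siRNA in 1 µl of JetPEI transfection reagent, and tissue was taken 7 days later. The siRNA was infused locally into cortex made of many cell types, and all of these cells contribute to a library.

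Circular RNAs arise when the spliceosome joins the end of an exon back to an upstream exon. RNA-binding proteins can help this by bringing flanking introns together, or hinder it by unwinding or editing paired introns. In human cells Qk is known for the first role, and Adar and Dhx9 for the second. Most of the other proteins are known as regulators of linear alternative splicing in neurons, such as the Elavl, Nova, Rbfox, Celf and Khdrbs families. Khdrbs proteins control an alternative segment of the neurexin mRNAs themselves in mouse brain.

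The siRNA strands are shown because they define the treatment. Lower-case letters pair with the other strand over 19 bases, and capitals mark the 2-base overhang.
sense strand: uccaaaggcuagacaggaaUU
antisense strand: uuccugucuagccuuuggaUU

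Total counts per library ran from 27589883 to 35221782, and 16573 genes had enough counts to be tested. The linear host mRNA Nrxn3 had 430, 381, 82 and 268 counts in knockdown replicates 1 to 4, against 344, 114, 216 and 261 counts in scrambled replicates 1, 3, 4 and 5. Poly-T selection keeps mainly linear mRNA, so these counts check nothing about the circle. Markers of neurons, astrocytes, oligodendrocytes and microglia were detected, 6 of each type, and 0 of the 6 were at 0 in every library. The log2 ratio of summed counts of long genes (over 3486 bp) to short genes (under 1372 bp) was 0.08 ± 0.13 in knockdown and −0.08 ± 0.10 in scrambled libraries (SD, n = 4 each, 2-sided exact permutation p = 0.0857, the smallest possible being 0.0286). This measure of long against short transcripts was −0.06 in knockdown replicate 3, and lowest, at −0.18, −0.12 and −0.11, in scrambled replicates 4, 5 and 3. Summed astrocyte markers were at 2535 ± 148 CPM in knockdown and 2875 ± 189 CPM in scrambled libraries (SD, n = 4 each, exact permutation p = 0.0571), and summed neuron markers at 6037 ± 288 CPM in knockdown and 5666 ± 263 CPM in scrambled libraries (exact permutation p = 0.143). The 6 neuron markers were split, with 3 log2 fold changes above 0 and 3 below (median 0.03). Of the 6 astrocyte markers 1 was above 0 and 5 were below. All 6 oligodendrocyte markers were above 0 (median 0.14). Their sum was 3266 ± 714 CPM in knockdown and 2951 ± 1174 CPM in scrambled libraries (exact permutation p = 0.657). Of the 6 microglia markers 3 were above 0 and 3 below. Summed red blood cell markers were at 252 ± 69.2 CPM in knockdown and 548 ± 313 CPM in scrambled libraries (exact permutation p = 0.0857), and 5 of 5 of them had a log2 fold change below 0. Of 6 endothelial markers 1 was at 0 in every library. CPM are counts scaled to library size. The part of these measures in the results below was not tested unless a value is given.

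Levels of different genes can be compared only per transcript length, for which the authors' FPKM values (reads scaled by gene length and library size) were used. On that scale the 31 genes spanned from the top to the bottom of the expressed range. Rbfox3, which encodes the neuronal nuclear protein NeuN, was the most abundant, at 163 ± 31.3 FPKM in knockdown and 183 ± 12.3 FPKM in scrambled libraries (SD, n = 4 each), above 96.5% of the tested protein-coding genes. Hnrnpl, a general splicing regulator, followed with 158 ± 14.0 FPKM in knockdown and 178 ± 14.7 FPKM in scrambled libraries, and Khdrbs3, also called SLM2, with 130 ± 11.6 FPKM in knockdown and 136 ± 15.4 FPKM in scrambled libraries. The ranges of Rbfox3, Hnrnpl and Khdrbs3 overlapped, so their order was within the spread. Rbfox1, another Rbfox splicing factor of neurons, was at 74.4 ± 6.01 FPKM in knockdown and 70.02 ± 9.41 FPKM in scrambled libraries. Qk, which encodes the glial RNA-binding protein Quaking, was the lowest of the 31, at 0.131 ± 0.104 FPKM in knockdown and 0.125 ± 0.0428 FPKM in scrambled libraries, with 2 to 25 counts in a library. Its values say little at such low counts. Mbnl1 and Srrm4 were the next lowest, and 27 of the 31 genes had at least 100 counts in every library. A gene model that lacks part of the mRNA would lower such a value, and the completeness of the models was not checked.

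**Figure D1:**
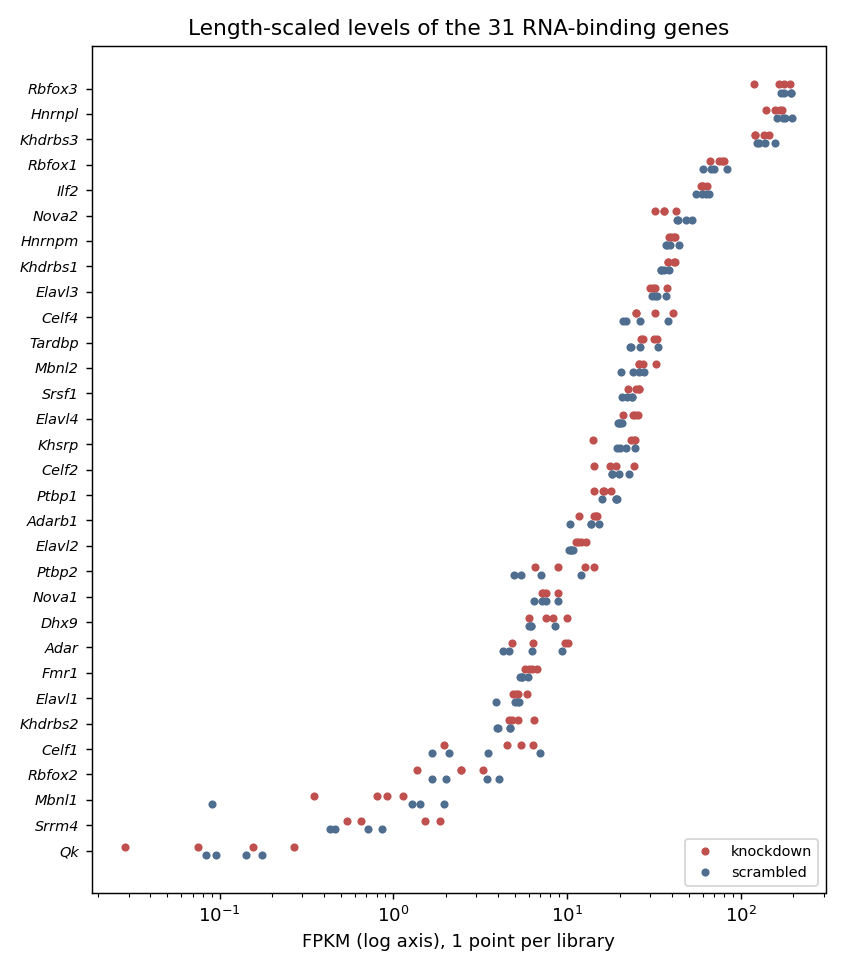
FPKM of each gene (log axis) in the 4 knockdown libraries (red, upper row of each gene) and the 4 scrambled libraries (blue, lower row), ordered by the mean of all 8. Rbfox3, Hnrnpl and Khdrbs3 stand at the top, and Qk, at 0.131 FPKM in knockdown libraries on average, at the bottom.

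Between the treatments none of the 31 genes passed the test. The quasi-likelihood test of edgeR, with p-values adjusted over all 16573 genes by the Benjamini-Hochberg method, called 0 of the 31, against 0% of all genes, and their adjusted p ran from 0.833 to 0.994. Limma-voom also called 0 of the 31, and DESeq2 0 of the 16 to which it gave an adjusted p (it gave none to the other 15). Without adjustment, 4 genes had a p under 0.05, or 12.9% of the 31 against 5.59% of all genes tested. These were Elavl4, Elavl2 and Khdrbs1 at higher levels (2.38% of all genes) and Nova2 at a lower level (3.20% of all genes). The knockdown and scrambled values did not overlap in 3 genes, Elavl4 and Elavl2 (higher) and Nova2 (lower), or 9.68% of the 31. Among all genes 3.48% did not overlap, 1.82% higher and 1.65% lower. The median log2 fold change (knockdown over scrambled) of the 31 was 0.12, with 22 above 0 and 9 below, beside a median of 0.01 over all genes, of which 51.3% were above 0. This median was 0.07 without knockdown replicate 2, 0.08 without scrambled replicate 3, 0.07 after removal of each library's trend with gene length, and 0.05 with 1 surrogate variable. These are counts and medians of chosen genes, which no test supports.

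**Figure D2:**
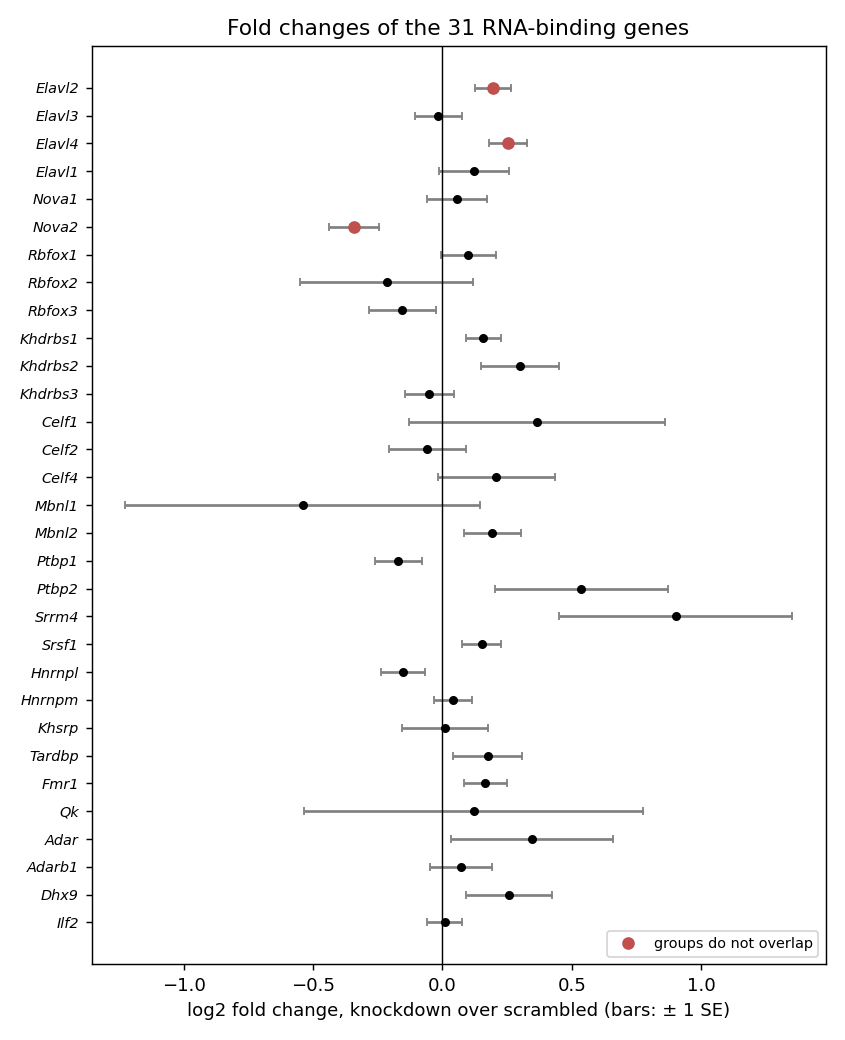
Log2 fold change, knockdown over scrambled, of the 31 genes with bars of 1 standard error, grouped by family. Red points mark Elavl4 (0.25), Elavl2 (0.20) and Nova2 (−0.34), whose groups do not overlap, and the widest bars belong to Mbnl1 (SE 0.69), Qk (SE 0.65), Celf1 and Srrm4.

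The Elavl genes encode the Hu proteins, which bind U-rich RNA and regulate splicing, stability and translation of neuronal mRNAs. Elavl4 (HuD; ENSRNOG00000023601, chromosome 5, 130001372 to 130085838, minus strand, rn6) was at 103, 84.3, 97.5 and 94.7 CPM in knockdown replicates 1 to 4, against 79.7, 79.5, 81.3 and 77.8 CPM in scrambled replicates 1, 3, 4 and 5. Every knockdown value lay above every scrambled value, and the scrambled libraries lay close together (SD 7.83 CPM among knockdown and 1.45 CPM among scrambled libraries). The log2 fold change was 0.25 ± 0.07 (SE), and it did not pass (edgeR adjusted p = 0.833, unadjusted p = 0.00563). Elavl2 (HuB; ENSRNOG00000006853, chromosome 5, 109499418 to 109625723, minus strand) was at 54.3, 47.0, 48.3 and 50.2 CPM in knockdown replicates 1 to 4, against 44.2, 43.2, 44.5 and 42.3 CPM in the scrambled ones. The groups again did not overlap, at a log2 fold change of 0.20 ± 0.07 (SE) (edgeR adjusted p = 0.833). With the length trend removed the log2 fold changes of Elavl4 and Elavl2 were 0.19 and 0.13. In whole tissue, a higher level per cell and more of the cells that make the mRNA cannot be told apart.

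Elavl3 (HuC), the third neuronal member, was at 58.0 ± 5.73 CPM in knockdown and 58.6 ± 4.96 CPM in scrambled libraries (SD, n = 4 each), with log2 fold change −0.02 ± 0.09 (SE). Elavl1 (HuR), the member found in most cell types, was at 12.9 ± 1.03 CPM in knockdown and 11.9 ± 1.63 CPM in scrambled libraries, with overlapping groups. Elavl4 and Elavl2 kept a nearly fixed proportion to each other. The log2 ratio of their counts, from which library scaling cancels, was 0.92 ± 0.07 in knockdown and 0.87 ± 0.01 in scrambled libraries (SD, n = 4 each), and over the 8 libraries their log2 levels had a Pearson correlation of 0.95, given as a description of libraries that also share their processing. Elavl4 and Elavl2 both separated the groups in the same direction, which adds to that correlation. The log2 count ratio of Elavl4 to Elavl3 was 0.71 ± 0.19 in knockdown and 0.44 ± 0.14 in scrambled libraries, and the groups overlapped.

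The Nova proteins bind YCAY clusters and regulate splicing of synaptic mRNAs in neurons. Nova2 (ENSRNOG00000013847, chromosome 1, 79831534 to 79865807, plus strand), the main form in the cerebral cortex, was at 47.8, 53.6, 62.9 and 53.9 CPM in knockdown replicates 1 to 4, against 64.7, 77.1, 70.8 and 63.8 CPM in scrambled replicates 1, 3, 4 and 5. All knockdown values lay below all scrambled values, although knockdown replicate 3, at 62.9 CPM, came close to scrambled replicate 5, at 63.8 CPM. The log2 fold change was −0.34 ± 0.10 (SE) (edgeR adjusted p = 0.833, unadjusted p = 0.00564). With the length trend removed it was −0.34, and without knockdown replicate 1 it was −0.28. Nova1 was at 29.6 ± 3.04 CPM in knockdown and 28.5 ± 4.10 CPM in scrambled libraries (SD, n = 4 each), with log2 fold change 0.06 ± 0.12 (SE). The log2 count ratio of Nova2 to Nova1 was 0.49, 0.88, 1.19 and 0.96 in the knockdown libraries, against 0.93, 1.66, 1.39 and 1.15 in the scrambled ones, so the groups overlapped on this ratio.

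The promoters of the 3 genes whose groups did not overlap are shown for comparison, each from 250 bases before to 50 after the start of the gene in RefSeq (GRCr8 build). Capitals mark GC boxes (GGGCGG on either strand). The Elavl4 window is chr5:130367614-130367913 on the minus strand, the Elavl2 window chr5:111202238-111202537 on the minus strand and the Nova2 window chr1:87700078-87700377 on the plus strand.
Elavl4: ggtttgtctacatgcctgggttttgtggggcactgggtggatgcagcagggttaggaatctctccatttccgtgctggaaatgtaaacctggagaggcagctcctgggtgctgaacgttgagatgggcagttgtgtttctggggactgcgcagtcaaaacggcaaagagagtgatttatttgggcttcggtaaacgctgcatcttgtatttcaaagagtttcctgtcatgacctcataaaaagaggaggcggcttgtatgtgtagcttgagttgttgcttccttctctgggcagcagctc
Elavl2: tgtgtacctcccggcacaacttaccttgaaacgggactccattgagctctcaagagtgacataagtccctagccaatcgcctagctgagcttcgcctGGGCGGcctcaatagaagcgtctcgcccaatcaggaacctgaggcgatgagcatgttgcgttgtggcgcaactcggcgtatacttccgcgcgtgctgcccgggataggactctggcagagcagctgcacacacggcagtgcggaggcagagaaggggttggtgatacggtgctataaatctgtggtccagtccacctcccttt
Nova2: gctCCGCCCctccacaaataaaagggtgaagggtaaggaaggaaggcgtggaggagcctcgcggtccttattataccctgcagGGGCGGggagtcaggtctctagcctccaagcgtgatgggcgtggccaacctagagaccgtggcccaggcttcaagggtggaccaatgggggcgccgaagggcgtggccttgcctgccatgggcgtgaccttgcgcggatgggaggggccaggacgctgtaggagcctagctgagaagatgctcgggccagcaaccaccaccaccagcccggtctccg
The GC box occurs 0 times in the Elavl4 window, 1 time in that of Elavl2 and 2 times in that of Nova2, and 33.1% of 33465 promoters of this length hold at least 1. A match describes the letters and says nothing of a factor. CCAAT, on either strand, occurs 0 times in the Elavl4, 2 times in the Elavl2 and 1 time in the Nova2 window and is in 37.5% of all promoters. The GC content is 50% for Elavl4, 57.3% for Elavl2 and 64.7% for Nova2. Promoters were matched for 24 of the 31 genes, of which 14 hold a GC box. The median GC content was 61.8% over these 24 and 51.7% over all promoters. All promoters include those of genes not tested here, whereas the 24 belong to tested protein-coding genes, so the sets are unlike.

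**Figure D3:**
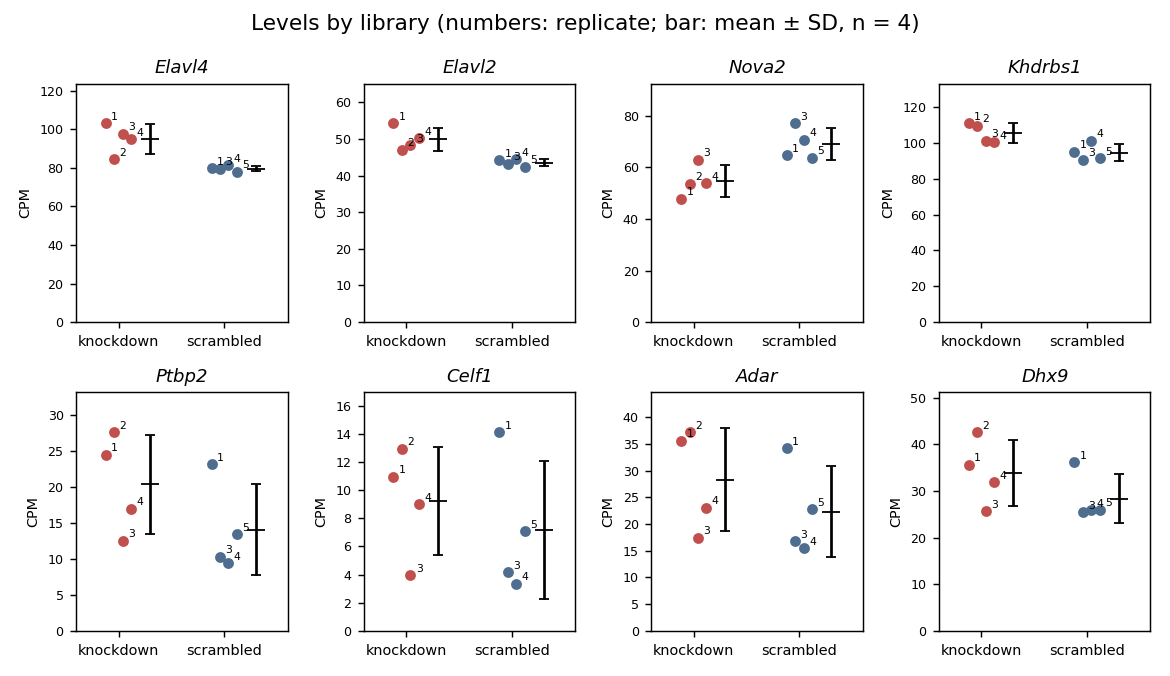
CPM of 8 genes in each knockdown library (red, left) and scrambled library (blue, right), with the replicate number beside each point and the mean ± SD of 4 libraries as a black bar. The groups separate in Elavl4, Elavl2 and Nova2, and in Ptbp2, Celf1, Adar and Dhx9 knockdown replicate 3 lies among the low scrambled values and scrambled replicate 1 among the high knockdown values.

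The Khdrbs genes encode STAR-family proteins related to Sam68. Khdrbs1 (Sam68) was at 111, 110, 101 and 100 CPM in knockdown replicates 1 to 4, against 95.0, 90.6, 101 and 91.5 CPM in scrambled replicates 1, 3, 4 and 5. Scrambled replicate 4 reached the lower knockdown values, so the groups overlapped. Its log2 fold change was 0.16 ± 0.07 (SE) (edgeR adjusted p = 0.833, unadjusted p = 0.0422), and 0.10 with the length trend removed. Khdrbs2 (SLM1), low in abundance, was at 10.4 ± 1.61 CPM in knockdown and 8.47 ± 0.830 CPM in scrambled libraries, and Khdrbs3 (SLM2) at 222 ± 19.2 CPM in knockdown and 229 ± 24.9 CPM in scrambled libraries (SD, n = 4 each). The log2 fold change of Khdrbs2 was 0.30 ± 0.15 (SE) and that of Khdrbs3 −0.05 ± 0.09 (SE). SLM2 is the member best known for acting on neurexin transcripts in the mouse, and its mRNA differed between the treatments by less than the spread between libraries.

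The Rbfox proteins bind UGCAUG and shape neuronal splicing. Rbfox1 was at 338 ± 28.1 CPM in knockdown and 315 ± 44.3 CPM in scrambled libraries, and Rbfox2, a member also found outside neurons, at 5.84 ± 1.92 CPM in knockdown and 6.80 ± 2.81 CPM in scrambled libraries (SD, n = 4 each). Rbfox3 was at 269 ± 50.8 CPM in knockdown and 299 ± 19.1 CPM in scrambled libraries. Their groups overlapped, and the log2 fold changes were 0.10 for Rbfox1, −0.22 for Rbfox2 and −0.15 for Rbfox3. That of Rbfox1 was 0.03 without scrambled replicate 3 and 0.20 without scrambled replicate 1, and that of Rbfox3 −0.03 without knockdown replicate 1 and −0.24 without knockdown replicate 4. In the knockdown group Rbfox3 was lowest in replicate 1, at 197 CPM, with 272 to 314 CPM in the other knockdown libraries. The log2 count ratio of Rbfox1 to Rbfox3 was 0.35 ± 0.37 in knockdown and 0.07 ± 0.28 in scrambled libraries (SD, n = 4 each). Srrm4, which drives inclusion of neuronal microexons, had the largest log2 fold change of the 31, 0.90 ± 0.45 (SE), from few reads. It was 0.57 without knockdown replicate 2, and 0.37 with limma on log2(FPKM + 1), where that of Ptbp2 was larger, at 0.49. Srrm4 was at 1.00, 3.39, 1.19 and 2.77 CPM in knockdown replicates 1 to 4, against 1.57, 0.775, 0.835 and 1.29 CPM in the scrambled libraries. Knockdown replicates 2 and 4 were above every scrambled value, and knockdown replicates 1 and 3 lay within the scrambled range.

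Ptbp1 and Ptbp2 encode polypyrimidine tract-binding proteins, of which the first represses neuronal exons in non-neuronal cells and the second replaces it as neurons form. Ptbp2 was at 24.5, 27.6, 12.5 and 17.0 CPM in knockdown replicates 1 to 4, against 23.1, 10.3, 9.39 and 13.5 CPM in scrambled replicates 1, 3, 4 and 5. Scrambled replicate 1 stood with the high knockdown libraries and knockdown replicate 3 with the low scrambled ones. The log2 fold change was 0.54 ± 0.33 (SE), and 0.89 without scrambled replicate 1. Ptbp1 ran the other way, at 47.2 ± 4.18 CPM in knockdown and 53.1 ± 4.63 CPM in scrambled libraries (SD, n = 4 each), with log2 fold change −0.17 ± 0.09 (SE). Its model overlaps that of Hmha1 on the same strand, so some reads may be shared. The log2 count ratio of Ptbp2 to Ptbp1 was −0.78, −0.78, −2.06 and −1.48 in the knockdown libraries, against −0.997, −2.42, −2.56 and −2.06 in the scrambled ones. Libraries of a group were spread over a wider range than the distance between the means of −1.28 in knockdown and −2.01 in scrambled libraries.

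The Celf proteins bind GU-rich RNA and regulate splicing, decay and translation, and muscleblind proteins (Mbnl) bind YGCY motifs and often act against them. Celf1 was at 11.0, 13.0, 3.96 and 9.01 CPM in knockdown replicates 1 to 4, against 14.1, 4.17, 3.34 and 7.07 CPM in scrambled replicates 1, 3, 4 and 5. The highest and the lowest value were both in the scrambled group, a 4.23-fold range over the 8 libraries, and the log2 fold change was 0.37 ± 0.50 (SE). It was 0.93 without scrambled replicate 1 and 0.05 with 1 surrogate variable. Celf4 was at 30.7 ± 7.63 CPM in knockdown and 26.6 ± 8.04 CPM in scrambled libraries, and Celf2 at 30.9 ± 6.74 CPM in knockdown and 32.2 ± 3.72 CPM in scrambled libraries (SD, n = 4 each). Mbnl2, the main form in brain, was at 129 ± 14.4 CPM in knockdown and 113 ± 14.5 CPM in scrambled libraries, a log2 fold change of 0.19 ± 0.11 (SE). Mbnl1, whose ortholog in Drosophila promotes circularization of its own exon, was at 1.89, 1.53, 0.576 and 1.32 CPM in the knockdown libraries, against 3.22, 2.33, 0.149 and 2.11 CPM in the scrambled ones. Scrambled replicate 4 held 5 counts of Mbnl1 and scrambled replicate 1 held 90.

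Adar and Adarb1 encode the adenosine deaminases ADAR1 and ADAR2, which edit double-stranded RNA, and Dhx9 a helicase that unwinds it. Adar was at 35.5, 37.2, 17.5 and 23.0 CPM in knockdown replicates 1 to 4, against 34.1, 16.8, 15.5 and 22.8 CPM in scrambled replicates 1, 3, 4 and 5. Dhx9 was at 35.6, 42.6, 25.6 and 31.9 CPM in the knockdown libraries, against 36.2, 25.4, 25.9 and 26.0 CPM in the scrambled ones. In both genes scrambled replicate 1 was far above the other scrambled libraries and knockdown replicate 3 was the lowest of its group. The log2 fold change of Adar was 0.35 ± 0.31 (SE) and that of Dhx9 0.26 ± 0.17 (SE). With 1 library left out they ran from 0.19 (without knockdown replicate 2) to 0.63 (without scrambled replicate 1) for Adar, and from 0.13 to 0.40, without the same libraries, for Dhx9. Adarb1 was at 93.5 ± 9.75 CPM in knockdown and 89.0 ± 13.9 CPM in scrambled libraries, and Ilf2 at 127 ± 4.20 CPM in knockdown and 127 ± 8.41 CPM in scrambled libraries (SD, n = 4 each).

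The remaining members act broadly on mRNA. Srsf1, a founding SR protein, was at 128 ± 8.98 CPM in knockdown and 115 ± 7.39 CPM in scrambled libraries, and Fmr1, which encodes the translational regulator FMRP, at 26.8 ± 1.79 CPM in knockdown and 23.9 ± 1.23 CPM in scrambled libraries (SD, n = 4 each). Tardbp, the gene of TDP-43, was at 39.0 ± 4.35 CPM in knockdown and 34.5 ± 6.46 CPM in scrambled libraries. Hnrnpl was at 362 ± 30.7 CPM in knockdown and 402 ± 31.1 CPM in scrambled libraries, and Hnrnpm, another hnRNP splicing factor, at 89.1 ± 3.52 CPM in knockdown and 86.5 ± 6.88 CPM in scrambled libraries. Khsrp, a KH-domain protein of mRNA decay and splicing, was at 58.8 ± 13.6 CPM in knockdown and 58.3 ± 6.20 CPM in scrambled libraries. Log2 fold changes of these genes ran from −0.15 for Hnrnpl to 0.18 for Tardbp, and all their groups overlapped.

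Levels of some genes varied widely over the 8 libraries. The highest level was at least 2 times the lowest in 7 genes (Srrm4, Ptbp2, Adar, Mbnl1, Celf1, Rbfox2 and Qk) and under 1.5 times it in 15. In 8 genes (Adar, Adarb1, Celf1, Celf4, Dhx9, Nova1, Ptbp2 and Rbfox2) the 3 lowest libraries were knockdown replicate 3 and scrambled replicates 3 and 4. Over the 8 libraries the log2 levels of Adar had a Pearson correlation of 0.98 with those of Ptbp2 and 0.96 with those of Celf1, and Hnrnpl one of −0.93 with Mbnl2. With the measure of long against short transcripts the correlation was 0.94 for Dhx9, 0.91 for Ptbp2 and 0.83 for Adar and Celf1, and −0.71 for Nova2 and −0.74 for Ptbp1. These correlations describe 8 libraries that share depth and processing and were picked from many pairs. With the length trend removed, the log2 fold changes of Ptbp2, Celf1, Adar and Dhx9 were 0.52, 0.35, 0.29 and 0.19, and with 1 surrogate variable 0.29, 0.05, 0.10 and 0.12.

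**Figure D4:**
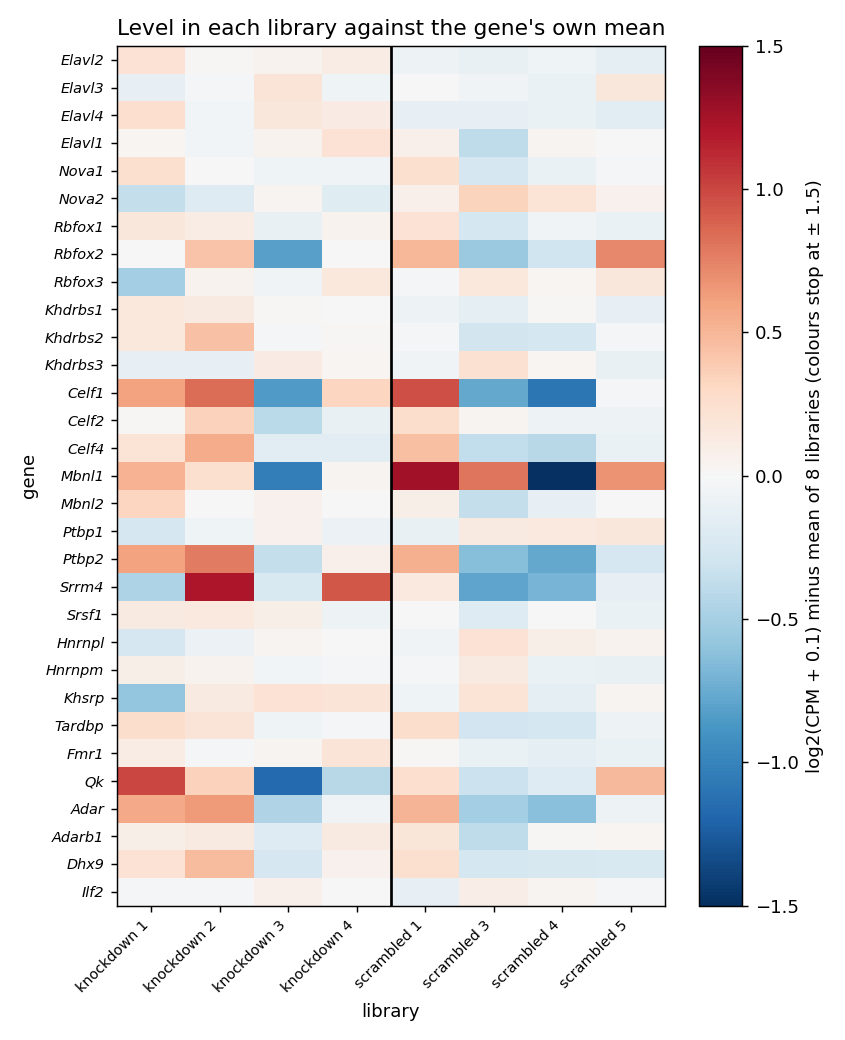
Level of each of the 31 genes in each library, as log2(CPM + 0.1) minus the gene's mean over the 8 libraries, knockdown libraries left and scrambled libraries right of the black line. Celf1, Ptbp2 and Adar are low (blue) in knockdown replicate 3 and scrambled replicates 3 and 4 and high (red) in knockdown replicates 1 and 2 and scrambled replicate 1, whereas Ilf2 and Hnrnpm hardly vary.

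Of 121 other genes of splicing and RNA processing in 6 lists, 115 were in the table and 114 were tested, in 115 rows because Hnrnpa3 has 2. The edgeR test called 0 of these rows (smallest adjusted p = 0.833). At an unadjusted p under 0.05 there were 9, 6 higher and 3 lower, or 7.83% beside 5.59% of all genes. The log2 fold change was above 0 in 70.4% of the 115 rows, beside 51.3% of all genes. Of the 115 rows, 3 had groups that did not overlap with knockdown higher and 2 with knockdown lower. Among all genes these shares were 1.82% and 1.65%. The median of the log2 fold changes was 0.17 in other SR proteins, 10 of 12 of which were above 0. In this list Srsf5 was at 224, 240, 210 and 204 CPM in knockdown replicates 1 to 4, against 201, 189, 187 and 185 CPM in the scrambled libraries, and its groups did not overlap (log2 fold change 0.21 ± 0.07, SE, adjusted p = 0.833). Srsf11 had a log2 fold change of 0.27 ± 0.09 (SE). Other hnRNP proteins also had a median of 0.17, with 16 of 20 rows above 0. The groups overlapped in Hnrnpll (0.36 ± 0.12, SE) and did not in Hnrnpa2b1 (0.21 ± 0.08, SE).

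In core spliceosome genes the median was −0.00093, and 15 of 30 log2 fold changes were above 0. Snrpb, which encodes the SmB protein of spliceosomal snRNPs, was at 54.7 ± 1.89 CPM in knockdown and 61.5 ± 3.90 CPM in scrambled libraries without overlap, a log2 fold change of −0.17, and Sf3a2, a U2 snRNP subunit, had −0.28. Factors of circular RNA export, turnover and m6A modification had a median of 0.03, with 15 of 21 above 0, and Ythdc1, a nuclear m6A reader, had 0.14 and Ddx5, an RNA helicase, 0.23. Other RNA-binding splicing regulators had a median of 0.10, with 22 of 24 above 0. Ewsr1, an RNA-binding protein of the FET family, was at 4.49, 4.44, 5.58 and 4.88 CPM in the knockdown libraries, against 25.3, 33.9, 4.56 and 9.75 CPM in scrambled replicates 1, 3, 4 and 5. Scrambled replicate 4 lay within the knockdown range, and the log2 fold change of −1.92 ± 0.56 (SE) did not pass (edgeR adjusted p = 0.833). Msi1, a Musashi protein, had −0.19. Paralogs of the 31 genes had a median of −0.03, with 3 of 8 above 0, and of these Fxr2, a relative of FMRP, had −0.11. Adarb2, an ADAR relative without known editing activity, had −0.71 ± 0.68 (SE), from 3 to 41 counts in a library and with overlapping groups.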

How the data were processed

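RNA of 8 rat cortices was sequenced from poly-T selected, strand-marked libraries, per the labels' protocols. The deposited counts are whole-number reads per gene without normalization, and the FPKM values are the authors' own scaling of them by gene length and library total. Per the submitters' processing notes the tools were fastp, HISAT2 2.0.5, StringTie 1.3.3b and featureCounts 1.5.0-p3 with build rn6, and the sources used here do not give whether counting used strand. Samples were grouped by title. Genes were kept by filterByExpr (minimum count 10), scaled by TMM and tested with the quasi-likelihood F test of edgeR 4.0.16 in R 4.3.3 (limma 3.58.1), with Benjamini-Hochberg adjustment and a threshold of 0.05. Standard errors (SE) were taken from the fold change and its F statistic. The code was tested on simulated data. Within-group pairs of libraries were compared, and none matched within counting error (chi-square over its degrees of freedom of 23.2 to 47.4). Per the labels the samples are biological replicates. All 31 genes, the 6 wider lists and the paralog ratios were chosen with earlier results of these data known. The rule names all 31 genes, in full those with an unadjusted p under 0.05 or no overlap, and the 2 of each wider list with the smallest p. Other genes given library by library were chosen after their values were seen. Alternatives were RLE and upper-quartile scaling, other filters, DESeq2 1.42.0, limma-voom, limma on log2(FPKM + 1) and log2(FPKM + 0.1), each library left out, a replicate block, removal of a length trend, protein-coding genes alone, 3 libraries left out and 1 surrogate variable (sva 3.50.0). No model of the 31 genes shares its position with an opposite-strand gene of over 4 counts on average, and reads shared with pseudogene copies were not measured.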

Additional observations from a re-analysis of the deposited data

Results flagged for a closer look

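In 4 of 62 sets of 4 libraries (31 genes in each treatment), 1 library stood apart from the other 3 by Dixon's test, where chance flags about 1 in 20. Khsrp was at 38.5 CPM in knockdown replicate 1 and at 63.6 to 67.1 CPM in the other knockdown libraries. Adarb1 was at 79.0 CPM in knockdown replicate 3 and at 96.6 to 99.4 CPM in the other knockdown libraries. Scrambled replicate 1 stood apart in Dhx9, at 36.2 CPM with 25.4 to 26.0 CPM in the other scrambled libraries, and in Ptbp1, at 46.2 CPM with 54.9 to 56.0 CPM in the others.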

How the results depend on the processing

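Over 22 alternatives, 20 of the 31 genes kept the direction of their log2 fold change, and 0 of the 664 recomputed values of a gene that had an adjusted p passed the threshold. DESeq2 gave no adjusted p to 15 of the 31. The number of genes called among all genes was 0 in the edgeR fit of 8 libraries, 18 with DESeq2 (4 higher, 14 lower, none of the 31), 3 when knockdown replicate 3 and scrambled replicates 3 and 4 were left out together, and 0 to 1 with each library left out in turn. The 3 libraries left out together were the 3 lowest in 8 of the 31 genes, so they were not a neutral choice. Leaving out 1 library gave a median log2 fold change of the 31 genes of 0.065 to 0.17 and a difference in the length measure, knockdown minus scrambled, of 0.11 to 0.22. The unadjusted p was under 0.05 in 22 of 22 alternatives for Nova2, in 21 for Elavl4, in 18 for Elavl2 and in only 7 for Khdrbs1. These genes were singled out by their values in the same libraries, which the alternatives reuse, so these counts are not replication. With 1 library left out the sign turned in at least 1 fit of Elavl3 (−0.095 to 0.037), Nova1 (−0.019 to 0.15), Qk (−0.49 to 0.43), Khsrp (−0.070 to 0.17), Celf2 (−0.20 to 0.041), Ilf2 (−0.030 to 0.037), Adarb1 (−0.035 to 0.15), Khdrbs3 (−0.11 to 0.020) and Rbfox2 (−0.41 to 0.014). Signs also turned with RLE scaling (Ilf2 −0.0056, Khsrp −0.0036), with DESeq2 (Ilf2 −0.0059, Khsrp −0.0033), with limma-voom (Khsrp −0.028, Mbnl1 0.077, Qk −0.14), with limma on log2(FPKM + 1) (Ilf2 −0.0018, Khsrp −0.028) and with limma on log2(FPKM + 0.1) (Ilf2 −0.0018, Khsrp −0.030, Qk −0.048). Further signs turned with the 6 libraries of numbers 1, 3 and 4 unpaired (Elavl3 0.052, Khsrp −0.022), with the length trend removed (Hnrnpm −0.0011, Ilf2 −0.029, Khsrp −0.044, Nova1 −0.0019), with the 3 libraries named above left out (Khdrbs3 0.018, Khsrp −0.030, Nova1 −0.044) and with 1 surrogate variable (Adarb1 −0.0054, Khdrbs3 0.0086, Nova1 −0.0087, Qk −0.49). The cause was not tested. Numbers 1, 3 and 4 occur in both treatments. The labels do not say that these numbers pair animals, so the numbers were not taken as pairs. Deviations of same-numbered libraries from their group means correlated by 0.37, 0.30 and 0.09 over genes. Of the 6 libraries, 5 correlated best with their own number (3 knockdown and 2 scrambled). Whether the numbers pair animals was not tested. With the replicate block on these 6 libraries 0 genes were called and the median of the 31 was 0.072, with Elavl3 at 0.046 and Khsrp at −0.055. With 2 to 25 counts of Qk in a library, its value is uncertain, and Qk was removed by the filter in 3 alternatives. The cause of its low counts was not tested.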
